A study of Mus musculus with 21 samples.

Results

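The 37 genes described here carry out or control cholesterol synthesis, uptake, efflux and the liver X receptor (LXR) response, and were chosen by name from the 37734 genes in the read count table of each library. They comprised 18 enzymes of sterol synthesis, 5 genes of the SREBP pathway, 7 genes of LXR and efflux, 4 genes of lysosomal uptake and storage, and 3 genes of fatty acid synthesis. Their mRNA was measured by RNAseq in conventional dendritic cells (cDCs), the cells that present antigen to T cells, sorted from the spleen and thymus of C57BL/6 (B6) mice aged 6 to 8 weeks. The study asked how tissue and maturation set the expression of antigen-processing enzymes in these cells, and the same libraries hold the lipid genes.

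Immature cells were CCR7 and ESAM negative and mature cells were positive for both. Within the CD11c positive cells, cDC1 were taken as CD24 positive and CD11b negative, and cDC2 as CD24 negative and CD11b positive. B220 positive cells were gated out of both subsets, and the labels name gates against DX5, F4/80, Ly6c and Ly6g for cDC1 but not for cDC2. In its flow cytometry the study took cDCs of both subsets as F4/80 negative. Organs of several mice were pooled before the sort. The 6 groups were immature splenic cDC1 (5 libraries, 4 samples), immature splenic cDC2 (3 libraries), immature thymic cDC1 (4 libraries), immature thymic cDC2 (3 libraries), mature thymic cDC1 (3 libraries) and mature thymic cDC2 (3 libraries), and no mature splenic cells were sequenced. The labels do not say which libraries came from separate pools, so p values measure the spread between these samples, which may be technical in part.

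Each library held between 14266867 and 40119669 reads in genes, and all 37 members were deep enough to be tested. Splenic cDC1 replicates 4 and 5 differed far less than all other pairs of their group and were averaged to 1 sample. Marker mRNAs differed between the gates. The summed level of the mature marker list (Ccr7, Esam, Fscn1 and Lamp3) was 188106 to 340710 in the mature samples and 667 to 8650 in the immature ones. All 4 cDC1 markers and at least 3 of the 4 cDC2 markers differed between the subsets in each tissue and state. The subset markers were lower in mature than in immature thymic cells. The summed cDC1 markers were 2423 to 2505 in mature thymic cDC1 and 44328 to 50954 in immature thymic cDC1. They were 5167 to 7422 in immature thymic cDC2. The summed cDC2 markers were 5441 to 8654 in mature and 34308 to 34492 in immature thymic cDC2. Values below are normalised read counts, the reads of a gene divided by the size factor of its library, unless stated. A member was called changed at a limma adjusted p below 0.1 and a fold change above 2, and the standard error (SE) stands beside each log2 fold change. In sorted bulk samples fewer cells of a type and less RNA per cell cannot be told apart.

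Cells make cholesterol from acetyl-CoA through the mevalonate pathway, and the transcription factor SREBP2 switches on its enzymes when membrane sterol is low. When sterol is plentiful, INSIG proteins hold SCAP and SREBP in the endoplasmic reticulum, and oxysterols activate LXR, which induces the efflux transporters ABCA1 and ABCG1 and the lipoprotein ApoE. In dendritic cells sterol content and LXR activity are known to bear on migration and antigen presentation.

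To show what the promoters of the members hold, the bases upstream of the transcription start were read from RefSeq (GRCm38.p6) for 29 of the 37. Those of 6 synthesis genes called higher in mature cells of at least 1 subset are printed 5′ to 3′. Capitals mark matches to the sterol regulatory element (TCACNCCAC) or to the CCAAT box, on either strand, so that ATTGG is a CCAAT box read on the other strand. Sqle, Fdps, Fdft1, Stard4, Abcg1, Npc1, Scd1 and Scd2 had no entry.
Hmgcs1, chr13:119690101-119690350, plus strand: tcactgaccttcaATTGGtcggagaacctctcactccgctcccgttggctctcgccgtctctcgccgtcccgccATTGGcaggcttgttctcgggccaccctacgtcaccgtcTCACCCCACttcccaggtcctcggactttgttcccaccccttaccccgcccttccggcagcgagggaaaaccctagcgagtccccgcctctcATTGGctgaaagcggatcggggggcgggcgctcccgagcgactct
Idi1, chr13:8885356-8885500, plus strand: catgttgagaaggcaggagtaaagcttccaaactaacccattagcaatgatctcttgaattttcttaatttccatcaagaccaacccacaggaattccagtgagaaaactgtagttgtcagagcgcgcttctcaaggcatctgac
Pmvk, chr3:89454291-89454540, plus strand: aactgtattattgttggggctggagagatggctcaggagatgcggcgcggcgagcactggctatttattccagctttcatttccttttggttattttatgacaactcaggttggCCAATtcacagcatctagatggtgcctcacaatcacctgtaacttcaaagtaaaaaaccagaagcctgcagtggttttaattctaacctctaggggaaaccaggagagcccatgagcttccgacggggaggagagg
Mvd, chr8:122443423-122443672, minus strand: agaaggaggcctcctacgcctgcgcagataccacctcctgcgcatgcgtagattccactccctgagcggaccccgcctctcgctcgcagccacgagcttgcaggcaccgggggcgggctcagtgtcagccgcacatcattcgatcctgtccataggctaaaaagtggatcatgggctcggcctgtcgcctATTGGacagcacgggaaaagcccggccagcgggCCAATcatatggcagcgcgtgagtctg
Cyp51, chr5:4104747-4104947, minus strand: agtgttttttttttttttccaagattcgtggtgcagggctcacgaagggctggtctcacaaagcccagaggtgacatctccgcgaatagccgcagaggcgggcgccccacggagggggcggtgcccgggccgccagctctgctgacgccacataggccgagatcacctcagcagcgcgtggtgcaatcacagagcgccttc
Hsd17b7, chr1:169969242-169969455, minus strand: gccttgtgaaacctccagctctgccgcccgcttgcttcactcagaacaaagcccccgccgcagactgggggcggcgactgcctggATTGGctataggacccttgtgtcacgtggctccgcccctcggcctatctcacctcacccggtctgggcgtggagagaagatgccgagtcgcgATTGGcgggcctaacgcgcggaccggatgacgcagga
The stretches of Idi1, Cyp51 and Hsd17b7 end where GENCODE starts the gene, upstream of the RefSeq start, and those of Idi1 and Cyp51 hold no marked match, since their CCAAT matches lie between the 2 starts. In the 250 bases before the RefSeq start, CCAAT lay in 13 of the 15 synthesis promoters read and in 34.5% of the 27025 promoters of all genes. The 13 include Ebp, called lower in mature thymic cDC1, and Sc5d and Nsdhl, called in neither subset with maturation. For members the promoter nearest the GENCODE start was read, and over all genes the first listed. The GC box (GGGCGG) lay in 14 of the 15 and in 32.9% of all promoters. The sterol regulatory element in this exact spelling lay only in that of Hmgcs1 among the 29 member promoters, 137 bases upstream of the start, and in 1.04% of all promoters. The E-box CACGTG lay in 4 of the 29 (Sc5d, Hsd17b7, Insig1 and Abca1) and in 6.05% of all promoters. A pair of AGGTCA repeats spaced by 4 bases, the form LXR binds, lay in 0 of the 29 and in 0.0111% of all promoters. These are matches of letters and not tests of binding.

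Of the 18 mevalonate and sterol enzymes, 13 were called higher in mature than in immature thymic cDC2, and 8 higher and 2 lower in mature than in immature thymic cDC1. In cDC1, 10 of the 37 members were called higher and 6 lower, where 21.3% of all genes tested were called higher and 24.5% lower. In cDC2, 15 of 37 were called higher and 7 lower, against 18.6% and 17.0% of all genes. The median log2 fold change of the 18 enzymes was 0.92 in cDC1 and 1.37 in cDC2, and that of all genes tested was -0.04 and 0.04.

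**Figure D1:**
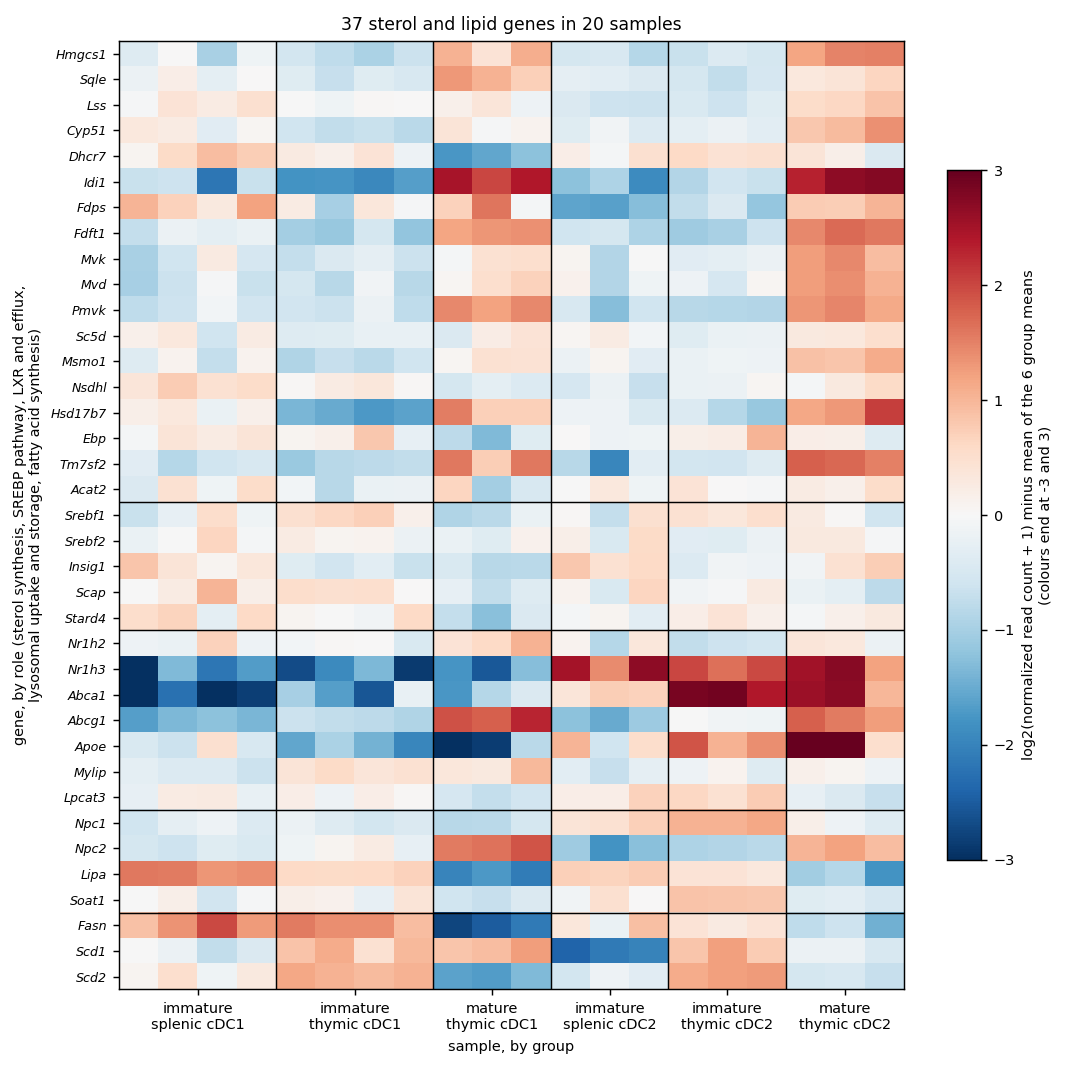
Level of each of the 37 members (rows, by role) in the 20 samples (columns, by group), as log2(normalised read count + 1) minus the mean of the 6 group means. In the top block, Idi1, Fdft1, Hmgcs1, Pmvk, Hsd17b7 and Tm7sf2 are red in every mature sample of both subsets, and Nr1h3 is blue in every cDC1 sample.

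Idi1, which isomerises isopentenyl diphosphate to start chain building, showed the largest rise among the members in both subsets. Its normalised read count was 174, 177, 158 and 191 in immature thymic cDC1 and 3384, 2431 and 3215 in mature thymic cDC1. In cDC2 it was 329, 408 and 379 in immature and 3008, 3866 and 4074 in mature thymic cells. No mature sample overlapped an immature one, and the lowest mature value, 2431, lay well above the highest immature thymic value, 408. The log2 fold change was 4.09 ± 0.30 in cDC1 (17.0-fold, limma adjusted p = 2.83e-10) and 3.28 ± 0.32 in cDC2 (9.74-fold, adjusted p = 4.23e-08). Idi1 lies at chr13:8885501-8892451 (GRCm38) on the plus strand.

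At the entry to the pathway, Hmgcs1, the HMG-CoA synthase, was 1077, 929, 818 and 1013 in immature and 3259, 2106 and 3361 in mature thymic cDC1. It was 997, 1179 and 1100 in immature and 3578, 4454 and 4497 in mature thymic cDC2. The groups did not overlap in either subset, with log2 fold changes of 1.58 ± 0.21 (limma adjusted p = 1.42e-06) and 1.93 ± 0.22 (adjusted p = 4.26e-07). Pmvk, which adds the second phosphate to mevalonate, rose in both (1.90 ± 0.19 and 2.17 ± 0.21), whereas the kinase Mvk (1.48 ± 0.31) and the decarboxylase Mvd (1.43 ± 0.28) passed the fold threshold in cDC2 only, with 0.81 ± 0.29 and 0.99 ± 0.26 in cDC1. The difference between the subsets was not called for either.

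At the branch point into sterols, Fdft1, the squalene synthase, was 304, 282, 428 and 271 in immature and 1410, 1542 and 1609 in mature thymic cDC1. It was 294, 317 and 405 in immature and 1693, 2009 and 1848 in mature thymic cDC2. The mature samples lay above all immature ones, and the log2 fold change was 2.26 ± 0.18 in cDC1 (limma adjusted p = 1.56e-09) and 2.46 ± 0.20 in cDC2 (adjusted p = 2.97e-09). Of the 50-base words in the coding transcripts of Fdft1, 30.7% also occur in transcripts of other genes on either strand, in part because its exons overlap Ctsb on the other strand, and 28.6% do so for Idi1.

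Sqle, the squalene epoxidase, was 532, 425, 534 and 492 in immature and 1709, 1416 and 1138 in mature thymic cDC1. In cDC2 it was 477, 410 and 481 in immature and 858, 906 and 1077 in mature cells. The groups were apart in both subsets, with log2 fold changes of 1.50 ± 0.16 (limma adjusted p = 9.99e-08) and 1.05 ± 0.17 (adjusted p = 4.36e-05). The cDC2 value sits close to the fold threshold and lost its call without mature thymic cDC2 replicate 3 or immature thymic cDC2 replicate 2.

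Of the enzymes that turn lanosterol into cholesterol, Hsd17b7, a sterol ketoreductase, was 80.3, 72.5, 62.4 and 67.7 in immature and 605, 343 and 339 in mature thymic cDC1, and in cDC2 156, 115 and 93.5 against 468, 514 and 877. Tm7sf2, a sterol C14 reductase, was 42.2, 51.6, 53.1 and 54.6 in immature and 277, 154 and 276 in mature thymic cDC1, and in cDC2 63.0, 61.6 and 70.1 against 321, 307 and 264. Both were higher in every mature than in every immature thymic sample. Hsd17b7 rose by 2.53 ± 0.27 in cDC1 (limma adjusted p = 6.89e-08) and 2.32 ± 0.28 in cDC2 (adjusted p = 1.13e-06) on the log2 scale, and Tm7sf2 by 2.16 ± 0.34 (adjusted p = 1.29e-05) and 2.18 ± 0.36 (adjusted p = 4.18e-05). Tm7sf2 shares 19.5% of its 50-base words with 1 other gene, and its exons overlap Vps51 on the same strand.

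The remaining synthesis enzymes moved less, and some moved down. Msmo1, a sterol methyl oxidase, rose in both subsets (1.06 ± 0.19 and 1.10 ± 0.21), but its call in cDC1 was lost without mature thymic cDC1 replicate 2 or replicate 3. Cyp51, the lanosterol demethylase (1.31 ± 0.17), and Lss, the lanosterol synthase (1.16 ± 0.18), rose in cDC2, with 0.84 ± 0.16 and 0.14 ± 0.17 in cDC1. Fdps, the farnesyl diphosphate synthase, was called higher in cDC2 (1.62 ± 0.46), yet it was listed at 8.75 to 90.1 in all samples and 64.1% of its 50-base words occur in 8 other genes, so its value is uncertain. Dhcr7, the reductase of the final step, fell in cDC1 by 1.68 ± 0.25 and was -0.46 ± 0.26 in cDC2. Ebp, the sterol isomerase, fell in cDC1 by 1.03 ± 0.26, a call lost without immature thymic cDC1 replicate 3 or mature thymic cDC1 replicate 2 and under upper-quartile scaling, and was -0.47 ± 0.28 in cDC2. The sterol desaturase Sc5d (0.37 ± 0.21 and 0.61 ± 0.23), the sterol dehydrogenase Nsdhl (-0.57 ± 0.17 and 0.38 ± 0.18) and Acat2, the thiolase that supplies acetoacetyl-CoA (0.04 ± 0.35 and 0.19 ± 0.37), were not called in either subset.

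**Figure D2:**
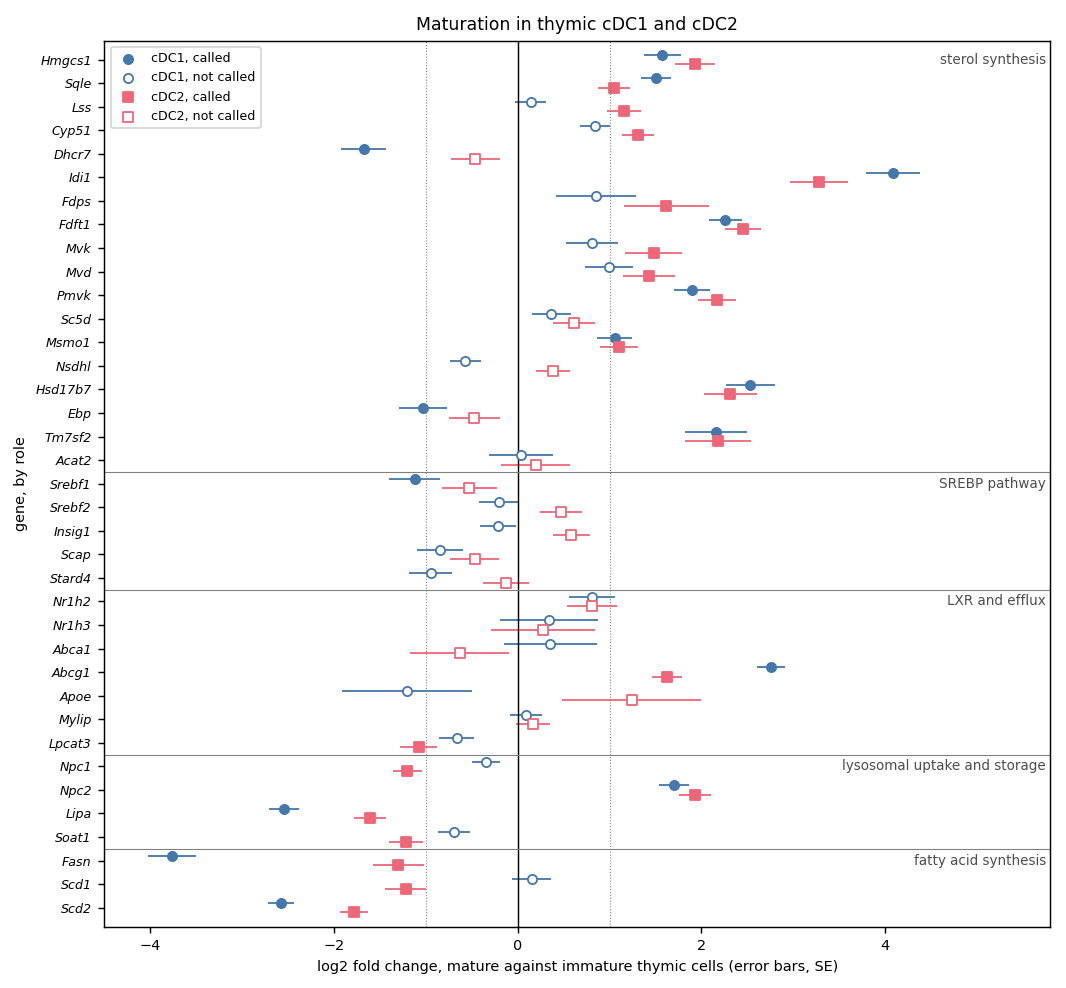
Log2 fold change of each member between mature and immature thymic cells in cDC1 (circles) and cDC2 (squares), with SE bars. Filled symbols mark called members and dotted lines mark a change of 1 on the log2 scale. Idi1 lies furthest to the right at 4.09 and 3.28, and Fasn in cDC1 furthest to the left at -3.77.

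Of the 10 members called higher in cDC1, all 10 were among the 15 called higher in cDC2: Hmgcs1, Sqle, Idi1, Fdft1, Pmvk, Msmo1, Hsd17b7, Tm7sf2, Abcg1 and Npc2. Of the 6 lower in cDC1 and the 7 lower in cDC2, 3 were shared, namely Lipa, Fasn and Scd2. No member was called in opposite directions. Such calls were rare over all genes too, with 63 genes, while 2155 were called higher and 2083 lower in both subsets. The shared members were 100% of those higher in cDC1 and 66.7% of those higher in cDC2, where the shares over all genes called higher were 67.7% and 77.5%, and 50% and 42.9% of those lower, where they were 56.8% and 81.8% over all genes. All mature libraries were run on lane 8. Among the lane 8 libraries alone, 17 members were called in cDC1 (11 higher and 6 lower) and 22 in cDC2 (15 higher and 7 lower), where 43.9% and 32.8% of all genes were called.

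Other features of the samples moved with maturation. All 15 cell cycle genes examined were called lower in mature thymic cDC1 and cDC2, and their summed level was 52897 to 64499 in immature thymic samples and 10030 to 13085 in mature ones. All 6 T cell markers were called higher in both subsets, with sums of 74.7 to 173 in immature and 471 to 1268 in mature thymic samples. The part of either in the lipid gene changes was not tested.

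Of the 5 SREBP pathway genes, 1 was called with maturation, Srebf1, and it was lower in cDC1. Srebf2, which encodes SREBP2, was 9573, 8637, 8721 and 7189 in immature and 7099, 6336 and 8834 in mature thymic cDC1. It was 6451, 6328 and 7201 in immature and 9928, 9929 and 7980 in mature thymic cDC2. The cDC1 groups overlapped and the cDC2 groups did not, with log2 fold changes of -0.21 ± 0.22 (limma adjusted p = 0.432) and 0.47 ± 0.23 (adjusted p = 0.101). Insig1, which retains SREBP and is itself a sterol-repressed SREBP target, was 1066, 915, 1094 and 858 in immature and 997, 769 and 780 in mature thymic cDC1, and 1028, 1261 and 1227 against 1272, 1866 and 2267 in cDC2. Its log2 fold change was -0.21 ± 0.19 in cDC1 and 0.59 ± 0.21 in cDC2, neither called. Srebf1, which encodes the SREBP1 proteins that drive fatty acid synthesis, fell in cDC1 by 1.12 ± 0.28, a call lost without mature thymic cDC1 replicate 1 and under upper-quartile scaling, and was -0.53 ± 0.30 in cDC2. The SREBP escort Scap (-0.84 ± 0.25 and -0.47 ± 0.27) and the sterol carrier Stard4 (-0.95 ± 0.23 and -0.13 ± 0.25) were not called.

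Of the 7 LXR and efflux genes, Abcg1 was the 1 called higher with maturation in both subsets. ABCG1 exports cholesterol to lipoprotein particles. Its normalised read count was 2688, 2509, 2422 and 2258 in immature and 15744, 14509 and 20486 in mature thymic cDC1, and 4129, 3920 and 3816 against 14599, 12438 and 9942 in cDC2. Every mature sample lay above every immature one, and the immature thymic cDC2 samples in turn lay above the immature thymic cDC1 samples. The log2 fold change was 2.76 ± 0.15 in cDC1 (limma adjusted p = 4.45e-12) and 1.62 ± 0.16 in cDC2 (adjusted p = 7.18e-08). Per exon length, Abcg1 reached 85.9 ± 8.9 RPKM (reads per kilobase of exon, scaled to library size, SD, n = 3) in mature thymic cDC1, above the 34.7 ± 5.9 of Idi1 on the same scale.

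Abca1, which loads cholesterol onto apolipoproteins, did not follow Abcg1. It was 81.1, 50.8, 26.5 and 139 in immature and 47.9, 90.1 and 121 in mature thymic cDC1, and 1185, 1222 and 864 against 964, 1064 and 327 in cDC2. Immature and mature samples overlapped in both subsets (0.36 ± 0.51, limma adjusted p = 0.572, and -0.63 ± 0.54, adjusted p = 0.365). The subsets, in contrast, did not overlap in any tissue or state.

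Nr1h3, which encodes LXRα, was 9.29, 16.7, 25.0 and 8.08 in immature and 18.4, 10.4 and 26.4 in mature thymic cDC1, and 265, 209 and 262 against 382, 441 and 152 in cDC2. It overlapped between states in each subset (0.34 ± 0.53 and 0.28 ± 0.57, not called). Nr1h2, which encodes the widely expressed LXRβ, was 0.81 ± 0.25 higher in cDC1 (limma adjusted p = 0.00976) and 0.81 ± 0.27 higher in cDC2 (adjusted p = 0.0185), with no overlap between states, and missed the fold threshold in both. Lpcat3, a phospholipid remodelling enzyme induced by LXR, fell in cDC2 by 1.08 ± 0.20, a call lost without mature thymic cDC2 replicate 3 and under upper-quartile scaling, and was -0.66 ± 0.19 in cDC1. Mylip, the LXR-induced ligase that degrades lipoprotein receptors, was 0.09 ± 0.17 and 0.17 ± 0.18.

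Apoe was the most variable member. It was 443, 676, 490 and 334 in immature and 60.8, 182 and 751 in mature thymic cDC1, and 4875, 2691 and 3469 against 18657, 17151 and 1872 in cDC2. The states overlapped in both subsets, and the log2 fold changes of -1.21 ± 0.71 (limma adjusted p = 0.152) and 1.24 ± 0.76 (adjusted p = 0.193) were not called. Mature thymic cDC2 replicate 3 stood apart from the other two, and without it the cDC2 change was 2.32 ± 0.66 (adjusted p = 0.00812) and was called. The same library had the lowest Abca1 and Nr1h3 of its group and a summed level of 2716 for the 10 macrophage markers, where the other two mature thymic cDC2 samples had 14323 and 15190. Mature thymic cDC1 replicate 3 held the highest Apoe of its group, 751. Its macrophage marker sum was 1047, where the rest of that group had 485 and 506. The cDC1 change without it is not given here. Vsig4 was at 0 in every sample, and 1 of the 9 macrophage markers tested was called higher and 3 lower in mature against immature thymic cDC2. Their part in the Apoe values was not tested.

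**Figure D3:**
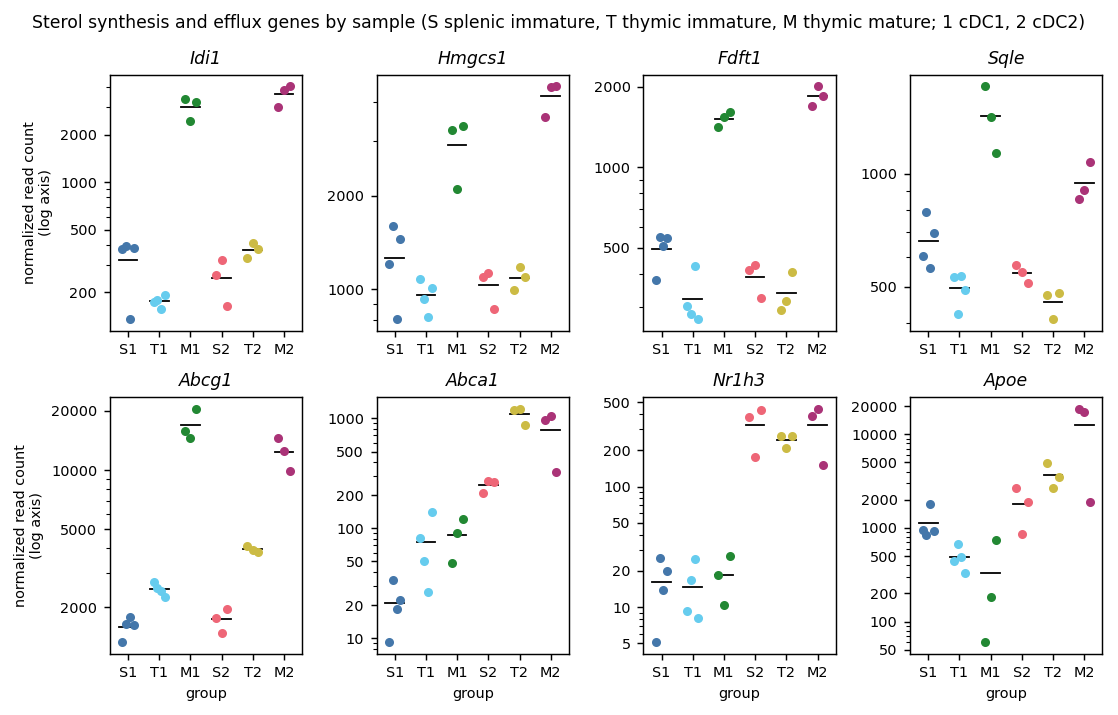
Normalised read count (log axes) of 4 synthesis genes (top row) and 4 LXR and efflux genes (bottom row) in each sample, with points for samples and bars for group means. Groups are immature splenic (S), immature thymic (T) and mature thymic (M) cells of cDC1 (1) and cDC2 (2). The synthesis genes and Abcg1 separate M1 and M2 from the rest, Abca1 and Nr1h3 separate cDC2 from cDC1, and 1 mature cDC2 sample lies low for Apoe at 1872.

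Of the 4 genes of lysosomal uptake and storage, 1 was called higher and 1 lower in mature thymic cDC1, and 1 higher and 3 lower in cDC2. Npc2, the soluble protein that binds cholesterol released in the lysosome, rose in both subsets (1.70 ± 0.16 in cDC1, 1.93 ± 0.18 in cDC2). It lay between 12197 and 17138 in immature and between 42737 and 53023 in mature thymic cDC1, and between 7654 and 8196 and between 27488 and 33560 in the same states of cDC2. Lipa, the lysosomal acid lipase that frees cholesterol from its esters, fell by 2.54 ± 0.16 in cDC1 and by 1.61 ± 0.17 in cDC2, with 2947 to 3205 in immature and 467 to 603 in mature thymic cDC1. The states did not overlap for either gene. Npc1, the membrane partner of NPC2, fell in cDC2 by 1.20 ± 0.16 and was -0.35 ± 0.15 in cDC1. Soat1, which esterifies cholesterol for storage, fell in cDC2 by 1.22 ± 0.19 and was -0.69 ± 0.17 in cDC1.

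Of the 3 fatty acid synthesis genes, 2 were called lower in mature thymic cDC1 and 3 in cDC2. Fasn, the fatty acid synthase, was 6585, 5900, 5869 and 4251 in immature and 334, 400 and 513 in mature thymic cDC1, and 2976, 2703 and 2978 against 1334, 1460 and 826 in cDC2. Scd2, a stearoyl-CoA desaturase, was 5961, 5545, 5184 and 5525 in immature and 877, 846 and 1073 in mature thymic cDC1, and 5836, 6333 and 6542 against 1869, 1919 and 1651 in cDC2. Neither gene overlapped between the states in either subset. Fasn fell by 3.77 ± 0.26 in cDC1 (13.6-fold lower, limma adjusted p = 1.71e-10) and by 1.30 ± 0.28 in cDC2 (adjusted p = 0.00073), and Scd2 by 2.58 ± 0.14 (adjusted p = 4.8e-12) and 1.78 ± 0.15 (adjusted p = 7.58e-09) on the log2 scale. The related desaturase Scd1 fell in cDC2 only by the thresholds, from 664, 882 and 634 to 328, 331 and 269 (-1.22 ± 0.22, adjusted p = 0.000138), and was 675, 810, 512 and 735 against 665, 711 and 886 in cDC1 (0.15 ± 0.21).

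**Figure D4:**
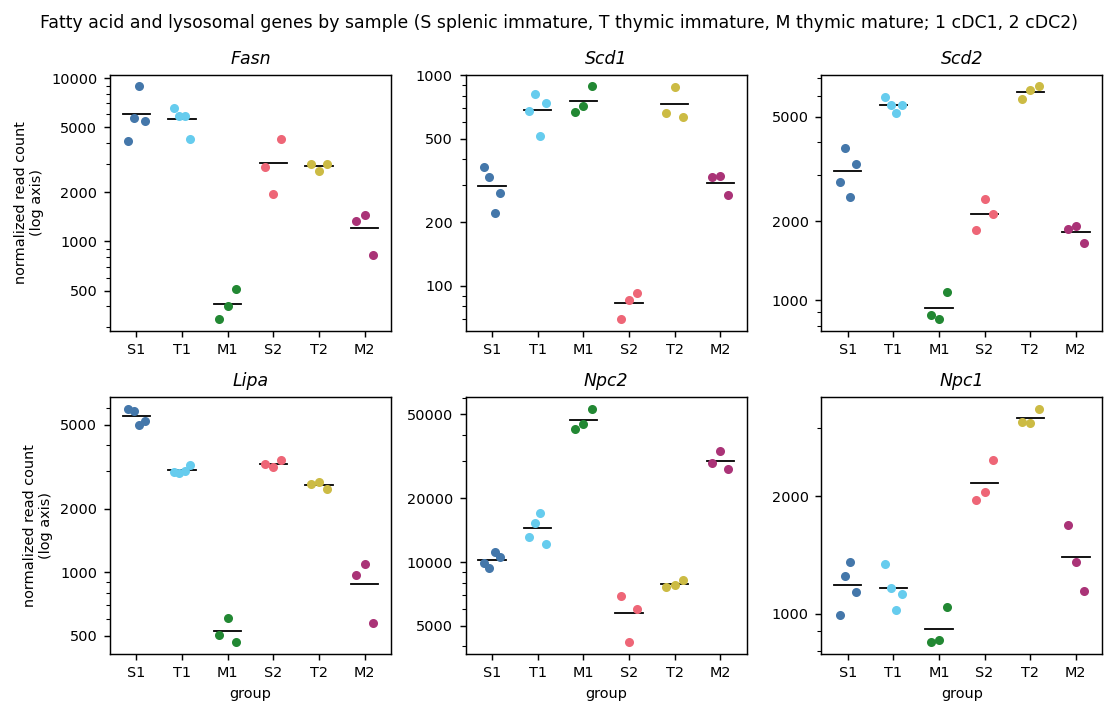
Normalised read count (log axes) of 3 fatty acid genes (top row) and 3 lysosomal cholesterol genes (bottom row) in each sample, with bars at group means and group letters S, T and M for immature splenic, immature thymic and mature thymic cells of cDC1 (1) and cDC2 (2). By group mean, Fasn, Scd2 and Lipa lie lowest in M1 and Npc2 highest in M1, and Scd1 lies lowest in S2, at 69.6 to 92.9.

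The maturation effect itself differed between the subsets for 5 of the 37 members (3 with a higher and 2 with a lower value in cDC2), where 8.34% and 5.25% of all genes tested were called. The value in cDC2 minus that in cDC1 was 2.47 ± 0.39 for Fasn (limma adjusted p = 0.000222), 1.22 ± 0.36 for Dhcr7 (adjusted p = 0.0308) and 1.02 ± 0.25 for Lss (adjusted p = 0.0101). It was -1.37 ± 0.31 for Scd1 (adjusted p = 0.00519) and -1.14 ± 0.22 for Abcg1 (adjusted p = 0.00176). Fasn thus fell less in cDC2 than in cDC1, and Abcg1 rose less. The Lss difference was near the fold threshold and lost its call by DESeq2, under upper-quartile scaling, with a pseudocount of 8, and without immature thymic cDC1 replicate 3, immature thymic cDC2 replicate 2, mature thymic cDC1 replicate 3 or mature thymic cDC2 replicate 3. That of Dhcr7 was 1.23 ± 0.43 within lane 8 and not called (adjusted p = 0.119). The Abcg1 difference was not called without mature thymic cDC1 replicate 3 or mature thymic cDC2 replicate 3, and that of Apoe, 2.45 in the whole set, was 3.53 ± 0.87 (adjusted p = 0.0103) and called without the latter. The count rose to 8 without mature thymic cDC2 replicate 1.

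Other genes of the same pathways were listed by name, 54 in number, and 52 of them were tested. In mature thymic cDC1, where 21.3% of all genes were called higher and 24.5% lower, 9 of the 52 were higher and 15 lower. In mature thymic cDC2, where the shares of all genes were 18.6% and 17.0%, 6 of the 52 were higher and 12 lower. Among those above a mean of 100, the largest rises were of Me1, the malic enzyme that supplies NADPH (5.63 in cDC1, from a mean of 2.0 to 132), of the lipoprotein receptor Lrp8 (4.74 in cDC1 and 2.58 in cDC2), of the sterol transporter Gramd1b (2.96 and 2.32) and, in cDC2, of Smpdl3a (2.46), a phosphodiesterase related to acid sphingomyelinase. The largest falls were of the lipoprotein receptor Lrp1 (-4.88 and -3.18), the fatty acid receptor Cd36 (-4.71 and -2.88) and Rxra (-4.70 and -2.47), which encodes the partner of LXR, in cDC1, and in cDC2 of Cyp7b1, an oxysterol hydroxylase (-3.56), and of Scarb1, the receptor for high-density lipoprotein (-3.35). The median log2 fold change of the 52 was -0.45 in cDC1 and -0.05 in cDC2.

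Fewer members were called between tissues than between states, as was also so over all genes. Of the 14970 genes tested, 1313 and 2121 were called between tissues in cDC1 and cDC2, and 6848 and 5329 between states. The members called between tissues were efflux and desaturase genes and 1 sterol enzyme. Both kinds of comparison use the same immature thymic samples. In immature cDC1, 2 of the 37 members were called higher in the thymus and 1 lower, against 4.26% and 4.52% of all genes. In immature cDC2, 4 were called higher and 0 lower, against 8.30% and 5.87% of all genes. No member was called lower in cDC2 by limma, edgeR or DESeq2, while 1 member (Insig1) was lower at an unadjusted p under 0.05. Scd1 and Abca1 were called higher in both subsets, Scd2 and Abcg1 in cDC2, and Hsd17b7 lower in cDC1.

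Scd1 was 369, 329, 222 and 276 in splenic and 675, 810, 512 and 735 in thymic immature cDC1, and 69.6, 85.6 and 92.9 against 664, 882 and 634 in cDC2. The thymic samples lay above the splenic ones in both subsets, with log2 fold changes of 1.19 ± 0.19 (limma adjusted p = 0.000169) and 3.11 ± 0.22 (adjusted p = 4.36e-09). Scd2 was 1849, 2433 and 2131 in splenic and 5836, 6333 and 6542 in thymic cDC2 (1.55 ± 0.15, adjusted p = 3.22e-07), and 0.86 higher on the log2 scale in cDC1, below the fold threshold.

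Abca1 was 9.26, 33.5, 18.5 and 22.1 in splenic and 81.1, 50.8, 26.5 and 139 in thymic immature cDC1, and 210, 271 and 262 against 1185, 1222 and 864 in cDC2. The cDC1 samples overlapped and the cDC2 samples did not. The log2 fold change was 1.67 ± 0.47 (limma adjusted p = 0.0204) in cDC1 and 2.12 ± 0.54 (adjusted p = 0.00766) in cDC2. Within lane 8 the values were 1.46 and 1.97 and neither was called, and in a fit of only the groups compared the cDC1 call was lost (adjusted p = 0.101).

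Abcg1 was 1335, 1638, 1792 and 1629 in splenic immature cDC1, and 1774, 1480 and 1973 in splenic cDC2. It was higher in every thymic than in every splenic sample of the same subset, by 0.63 in cDC1, below the fold threshold, and by 1.19 ± 0.16 in cDC2 (limma adjusted p = 1.96e-05). The cDC2 value was 0.97 within lane 8, under the threshold. Apoe was 949, 840, 1822 and 938 in splenic cDC1 and 2640, 870 and 1877 in splenic cDC2, and its tissue differences of -1.20 and 1.13 were not called. Of the 9 macrophage markers tested, 4 were called higher and 1 lower in thymic than in splenic immature cDC2, with summed levels of 7956 to 10805 and 5577 to 6806, and their part in the efflux gene values was not tested.

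Hsd17b7 was 236, 259, 180 and 229 in splenic cDC1 and fell to the thymic values given above by 1.66 ± 0.25 (limma adjusted p = 6.27e-05). The other synthesis enzymes were not called between tissues. With no fold threshold, 6 of the 18 enzymes, Hsd17b7 included, had a limma adjusted p below 0.1 in thymic against splenic cDC1. All 6 were lower, and 0 passed in cDC2. Over the 37 members, 6 were higher and 8 lower in thymic cDC1 at that setting. The share of all genes, both directions together, is given in the closing section, and the share lower alone is not given here. The median log2 fold change of the 18 was -0.39 in cDC1 and 0.08 in cDC2, and that of all genes tested was 0.004 and 0.02. Of the lysosomal genes, Lipa was -0.85 and Npc2 0.48 in thymic against splenic cDC1, and Soat1 was 0.71, Npc1 0.56 and Npc2 0.50 in cDC2, all under the fold threshold, as was Mylip in cDC1 (0.88). Idi1 was 379, 392, 135 and 382 in splenic cDC1, of which replicate 3 stood apart, and 257, 320 and 163 in splenic cDC2. Without splenic cDC1 replicate 3, 5 members were called, since Idi1 (-1.13 ± 0.19, limma adjusted p = 0.000379) and Insig1 (adjusted p = 0.000665) were then called lower in thymic cDC1. Hmgcs1 was 1208, 1602, 803 and 1453 in splenic cDC1 and 1096, 1131 and 865 in splenic cDC2, and Sqle 605, 790, 561 and 695 and 573, 549 and 512.

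Insig1 was 2445, 1786, 1441 and 1722 in splenic cDC1 and 2373, 1881 and 2074 in splenic cDC2. All splenic samples lay above all immature thymic samples of their subset, and the log2 fold changes of -0.89 and -0.85 were below the fold threshold. Srebf2 was 7073, 8041, 12638 and 7747 in splenic cDC1 and 9248, 5878 and 12110 in splenic cDC2. Nr1h3 was 5.15, 25.6, 13.9 and 19.9 in splenic cDC1 and 375, 176 and 429 in splenic cDC2, and overlapped between tissues. In both splenic groups replicate 3, the libraries that share the number 9 in their labels, held the highest value of the group for 9 members (Abcg1, Dhcr7, Fasn, Lpcat3, Npc1, Nr1h2, Scap, Srebf1 and Srebf2) and the lowest for 8 (Cyp51, Hmgcs1, Hsd17b7, Idi1, Msmo1, Sc5d, Sqle and Stard4).

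The tissue effect differed between subsets for 2 of the 37 members, both with a higher value in cDC2, against 3.27% of all genes called higher and 1.71% lower. It was 1.92 ± 0.30 for Scd1 (limma adjusted p = 0.000366) and 1.40 ± 0.42 for Idi1 (adjusted p = 0.0645). Within lane 8 neither was called (1.56 and 1.64), and the Idi1 call was also lost in a fit of only the groups compared (adjusted p = 0.117) and when any of 8 of the 14 samples was left out, whereas without splenic cDC1 replicate 3 it was 1.77 ± 0.28 (adjusted p = 0.000618). Of the 52 other pathway genes tested, 2 were called higher and 3 lower in thymic cDC1, against 4.26% and 4.52% of all genes. In thymic cDC2, 7 were higher and 3 lower, against 8.30% and 5.87% of all genes. Cyp7b1 was called lower in thymic cDC1 (-1.80, with means below 100 and named after its values were seen) and higher in thymic cDC2 (3.63), and Rxra was higher in both (1.47 and 2.74).

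Between the subsets, 5 of the 37 members were called in the spleen, 5 in the immature thymus and 7 in the mature thymus. Of the 14970 genes tested, 2489, 2456 and 2834 were called in the same order. The 7 LXR and efflux genes held 2, 3 and 3 of these member calls. Nr1h2, Abcg1, Mylip and Lpcat3 were not called between the subsets in any tissue or state. In the spleen, 2 of the 37 members were called higher and 3 lower in cDC2 than in cDC1, against 9.93% and 6.70% of all genes. In immature thymic cells 5 were higher and 0 lower, against 11.0% and 5.42%, and edgeR and DESeq2 also called 0 lower while limma gave 4 lower at an unadjusted p under 0.05. In mature thymic cells 6 were higher and 1 lower, against 14.6% and 4.36%. Nr1h3 and Abca1 were called higher in cDC2 in all 3, and the cDC1 and cDC2 samples did not overlap.

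Nr1h3 was 4.35 ± 0.53 higher on the log2 scale in splenic cDC2 (limma adjusted p = 2.36e-06), 4.09 ± 0.53 in immature thymic cDC2 (adjusted p = 5.5e-06) and 4.02 ± 0.57 in mature thymic cDC2 (adjusted p = 2.86e-05). Per exon length, its level was 0.291 to 0.335 RPKM as group means in cDC1 and 5.19 to 6.43 in cDC2. Nr1h2 ran from 40.5 to 78.2 on the same scale in the 6 groups, above Nr1h3 in each. Abca1 was higher in cDC2 by 3.63 ± 0.51, 4.08 ± 0.51 and 3.09 ± 0.54 in the same order. Nr1h3 was 5.15 to 26.4 in all cDC1 samples, so that the pseudocount of 1 lowers its fold changes.

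Apoe was called higher in immature (2.92 ± 0.71) and mature thymic cDC2 (5.37 ± 0.76) and was 0.59 in the spleen. Npc1 (1.46 ± 0.15) and Idi1 (1.08 ± 0.30) were called higher in immature thymic cDC2, and Fasn (1.52 ± 0.28), Dhcr7 (1.56 ± 0.26) and Insig1 (1.06 ± 0.21) in mature thymic cDC2. Scd1 was lower in cDC2 in the spleen (-1.83 ± 0.21) and in mature thymic cells (-1.28 ± 0.22). Fasn was lower in splenic cDC2 (-1.03 ± 0.26), with overlapping samples and no call within lane 8 (-0.72), with lane as a term, or without splenic cDC1 replicate 3 or splenic cDC2 replicate 2. Fdps was lower in splenic cDC2 (-2.29 ± 0.43) at the low values noted above, and was -2.04 ± 0.85 within lane 8, where it was not called (adjusted p = 0.178). The Insig1 call was lost without mature thymic cDC1 replicate 2 or 3 or mature thymic cDC2 replicate 3, and under upper-quartile scaling.

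Macrophage markers moved with the subset. Of the 9 tested, 8, 9 and 8 were called higher in cDC2 of spleen, immature thymus and mature thymus, with summed levels of 2716 to 15190 over all cDC2 samples and 309 to 1047 over all cDC1 samples. Their part in the Nr1h3, Abca1 and Apoe values was not tested.

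**Figure D5:**
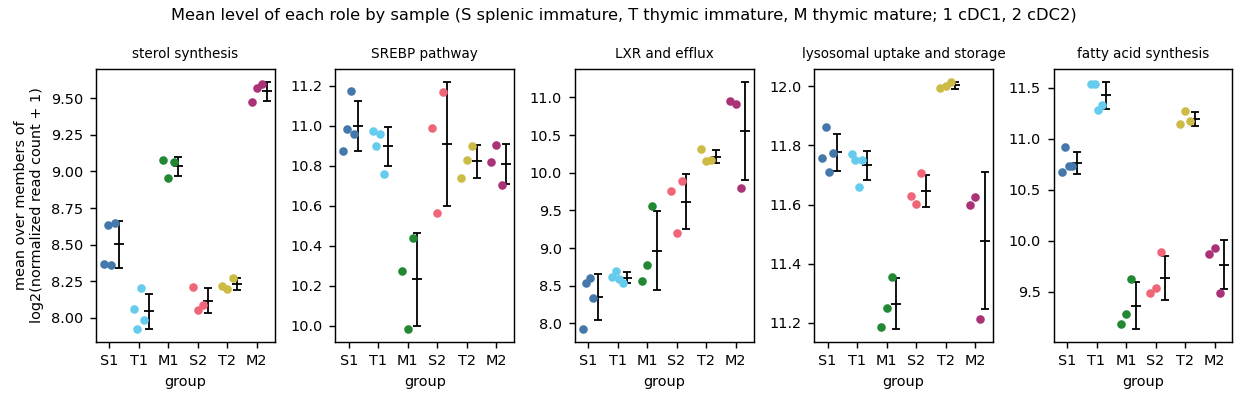
Mean over the members of each role of log2(normalised read count + 1), a point per sample, with group mean and SD beside the points. Groups are immature splenic (S), immature thymic (T) and mature thymic (M) cells of cDC1 (1) and cDC2 (2). Sterol synthesis is highest in M1 and M2 at 9.03 and 9.55. The LXR and efflux mean is higher in each cDC2 group than in the matching cDC1 group. Of its 7 genes, 2 were called higher in cDC2 in the spleen and 3 in each state of the thymus.

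Set side by side as role means, sterol synthesis and efflux had different orders. The mean log2 level of the 18 synthesis enzymes was 8.50 ± 0.16 (SD, n = 4) in splenic cDC1, 8.04 ± 0.12 (n = 4) in immature thymic cDC1 and 9.03 ± 0.07 (n = 3) in mature thymic cDC1. In cDC2 it was 8.12 ± 0.08, 8.23 ± 0.04 and 9.55 ± 0.07 (n = 3 each). The mean of the 7 LXR and efflux genes was 8.35 ± 0.31, 8.61 ± 0.07 and 8.97 ± 0.52 in cDC1 in the same order. In cDC2 it was 9.62 ± 0.37, 10.2 ± 0.08 and 10.6 ± 0.65. The 7 genes did not all differ between the subsets, and 2, 3 and 3 of them were called higher in cDC2 in that order. Their median log2 fold change, cDC2 against cDC1, was 0.34 in the spleen, 0.68 in immature and 0.13 in mature thymic cells. That of all genes tested was 0.02, 0.01 and 0.14. Mature and immature thymic samples overlapped in the LXR and efflux mean in both subsets. They lay at 8.56 to 9.56 against 8.54 to 8.70 in cDC1, and at 9.80 to 10.95 against 10.16 to 10.31 in cDC2. The 9.80 was that of mature thymic cDC2 replicate 3, and the 9.56 that of mature thymic cDC1 replicate 3. The synthesis mean minus the efflux mean lay between -0.77 and 0.52 in the 11 cDC1 samples and between -2.09 and -0.20 in the 9 cDC2 samples. These means are descriptions and were not tested, and the roles hold different genes, so that a difference between roles carries their lengths and base levels.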

How the data were processed

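RNAseq libraries were prepared by the authors from FACS-sorted cells with a TruSeq Stranded mRNA kit. The authors used Cutadapt for trimming, STAR (2.6 per the labels) with mm10 for alignment, HTSeq-count on Ensembl genes for counting, and DESeq2 (1.24.0 per the labels) for normalization. The Ensembl release and the strand setting of the counting are not given in the sources used here. The deposited values are a normalized signal, the read count divided by a size factor per library, and division by the value of 1 read gave whole reads, within 0.01, for 100% of them. Genes that share exons with a neighbour may therefore share reads.

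The members, roles and lists were chosen with earlier results of these data known. Splenic cDC1 replicates 4 and 5, with the same number, index and lane in their labels, gave a chi-square of 2.53 per degree of freedom and were averaged, which left 20 samples. Immature thymic cDC1 replicates 3 and 4 also share these labels but gave 100.5 and were kept apart. Splenic cDC1 replicate 1 carries the same number, 2, as replicates 4 and 5 but was run on lane 5 and not lane 8. It gave 58.7 and 51.5 against them and was kept as its own sample. Either group of 4 samples may thus hold a repeated source. limma (3.58.1 in R 4.3.3) was fitted to log2(value + 1) with 1 mean per group and an intensity trend over 14970 genes, those that reached 10 in 3 or more samples. Fold changes are on this scale, which understates those of low genes. p values were Benjamini-Hochberg adjusted over all genes tested, and a gene was called at an adjusted p below 0.1 and a change above 1 (log2), the thresholds of the study. Alternatives were edgeR (4.0.16) and DESeq2 (1.42.0) on the recovered reads, other scalings, pseudocounts, filters and thresholds, lane, library numbers and each sample left out. The pipeline was tested on simulated data. All members are accounted for. Values per sample are given for up to 4 called members with the largest change and a mean of at least 100 in each maturation or tissue comparison and for Hmgcs1, Sqle, Srebf2, Insig1, Abca1, Abcg1, Nr1h3 and Apoe, and up to 3 other pathway genes per direction are named. Gene positions and exon lengths came from GENCODE M21, in which 37607 of the 37734 identifiers were found. Msmo1 is listed as Sc4mol and Adgre1 as Emr1 and both were matched by identifier. Levels between genes are RPKM, reads per kilobase of exon scaled to the total reads of the library.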

Additional observations from a re-analysis of the deposited data

Results flagged for a closer look

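In 74 groups of 4 samples tested for a sample far from the rest, where chance marks about 1 in 20 groups, 4 were marked. Splenic cDC1 replicate 3 lay apart for Idi1 (134.8, the others 379 to 392), Nr1h2 (4496, the others 2434 to 2510) and Apoe (1822, the others 840 to 949). Immature thymic cDC1 replicate 4 lay apart for Scap (1812, the others 2515 to 2617).

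The maturation effect differed between cDC2 and cDC1 by a test of the difference for Fasn (2.47), Dhcr7 (1.22), Lss (1.02), Scd1 (-1.37) and Abcg1 (-1.14), as log2 values of cDC2 minus cDC1. The tissue effect differed in the same way for Scd1 (1.92) and Idi1 (1.40).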

How the results depend on the processing

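Of 69 calls of a member in a comparison, 53 held in every one of the alternatives computed for them, 16 were lost in at least 1 and 0 reversed, over 37 alternatives. Without a fold threshold the number of members called was 27 and not 16 for maturation in cDC1, 14 and not 3 for tissue in cDC1, 8 and not 4 for tissue in cDC2, 11, 15 and 23 for the subsets in spleen, immature and mature thymus, and 10 and 4 for the differences between subsets in the maturation and tissue effects. The share of all genes called rose too, to 64.1% for maturation in cDC1, 15.4% and 26.5% for tissue in cDC1 and cDC2, 29.4% and 30.3% for the splenic and mature thymic subsets and 18.5% and 6.25% for the 2 differences. With a value of at least 10 required in every sample, which left 34 members tested, the number of members called was 2 for the splenic and 3 for the immature thymic subsets. The members not tested under this filter were Nr1h3, Abca1 and Fdps, each below 10 in some samples. Their calls between the subsets are therefore absent from these counts. The shares of all genes under this filter, and for the immature thymic subsets without a fold threshold, are not given here. The tissue effect difference, with 2 calls, gave 4 by DESeq2 and in a fit of only the groups compared, 1 at an adjusted p below 0.05 or with 1 sample per library number, and 0 in lane 8. With each sample left out in turn the counts were 14 to 18 and 21 to 22 for maturation in cDC1 and cDC2, 3 to 5 and 4 to 4 for tissue, 5 to 6, 5 to 6 and 6 to 10 for the subsets in spleen, immature and mature thymus, and 4 to 8 and 1 to 3 for the differences in the maturation and tissue effects. The cause of these shifts was not tested, except that fewer samples or members entered some fits. Upper-quartile scaling moved the median of all genes by 0.166 and 0.118 (log2) for maturation in cDC1 and cDC2, -0.101 for tissue in cDC2 and -0.135 for the mature subsets, and changed no direction of a called member.

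With the library number as a replicate block, the tissue effect difference gave 4 calls, and the same samples without the block gave 4, of which 3 were shared (Apoe, Hsd17b7 and Scd1). Idi1 was called with the block (1.31, limma adjusted p = 0.0136) and not without it, and Fdps without it and not with it. The splenic subsets gave 6 with the block (Nsdhl added) and 5 without, and the immature thymic subsets 5 with and 5 without. Samples with the same number did not all deviate together (correlations of -0.078 to 0.461 between splenic and -0.150 to 0.276 between immature thymic subsets). Their mean correlation was nonetheless above that of other pairs, 0.159 against -0.084 between splenic and 0.077 against -0.039 between immature thymic subsets. The numbers were not taken to pair samples in the main fit, and some sharing within a number remains possible. For comparisons of maturation or tissue and for the mature subsets the groups share fewer than 2 numbers and no such fit was made. Abca1, Nr1h3 and Fdps rest on few reads in cDC1 or in all samples, which limits their fold changes.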
